A study of Mus musculus with 7 samples.

Results

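Adipocytes of the dermis and subcutis express a distinct set of genes for storing fat and for secreting hormones, and 10 of these genes (Adipoq, Cfd, Car3, Fabp4, Plin1, Plin4, Lpl, Cd36, Pparg and Cidec) were followed here through skin papillomas with and without expression of a p16 transgene. They were chosen by name from the 14820 genes of the table, and all 10 were present in it. The papillomas, benign epidermal tumors, were dissected whole from 27-week-old mice, and their RNA was profiled by CEL-Seq, which reads the 3′ ends of transcripts. The p16 group held 3 papillomas (p16 1, 2 and 3) from K5-rtTA/tet-p16 mice, in which doxycycline switches on human p16 in cells that use the keratin 5 promoter. The control group held 4 (control 1, 2, 3 and 5) from tet-p16 mice, which carry the same transgene but lack the rtTA driver. The human transgene was not analysed here as a check of the labels. Both genotypes received 50 nmol of the mutagen DMBA on the skin at 3 weeks of age and, from 1 week later, doxycycline in the drinking water with twice-weekly TPA, a tumor promoter. They were followed for 23 more weeks and killed 10 days after the last TPA dose. Per the methods of the study the mice were siblings, and papilloma assays used females. The labels do not say whether each papilloma came from a different mouse, so the p-values measure only the spread between these lesions.

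In a fat cell, the nuclear receptor encoded by Pparg drives differentiation and most of the other genes listed. Lpl releases fatty acids from circulating triglyceride, Cd36 takes them up and Fabp4 carries them in the cytosol. Plin1, Plin4 and Cidec encode coat proteins of the lipid droplet, Adipoq and Cfd encode the secreted proteins adiponectin and adipsin, and Car3 encodes a carbonic anhydrase abundant in fat and in slow skeletal muscle. Hair follicles are surrounded by fat that expands and shrinks with the hair cycle, and the panniculus muscle lies beneath it.

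Libraries held between 1158035 reads (p16 2) and 4365391 reads (p16 3), so that 1 read was worth 2.89 normalized read counts in p16 2 and 0.735 in p16 3. Values below are normalized read counts in the order p16 1, 2 and 3, and then control 1, 2, 3 and 5. Each log2 change is the p16 mean less the control mean of log2(value + 1), a scale on which genes with few reads change by less than their counts do. Changes were tested with limma over the 10466 genes whose p16 or control mean was 10 or more, and a gene passed at a Benjamini-Hochberg adjusted p under 0.05. Of the 10 genes, 6 were measured well enough to be tested, and Adipoq, Cfd and Cd36 reached this level only in p16 papillomas, so a difference in their favor was built into their inclusion.

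Adipoq, Cfd, Car3 and Lpl were higher in p16 papillomas, whereas Fabp4 and Pparg had their lower mean there. The first 4 genes passed the test, none of the 6 genes passed as lower, and Cd36 and Fabp4 did not pass. Over all genes tested, 2.66% passed as higher and 2.96% as lower. The median log2 change was 2.42 for the 6 genes, against −0.02 for all genes tested. Adipoq, Cfd and Cd36 were among the 6 only through their p16 mean. This favors a high median and more genes passing as higher, so both are descriptions only. In whole tissue, more fat cells in the lesion, more RNA per fat cell and more fat dissected with it cannot be told apart. Expression by other cells cannot be told apart from these either. The paper reports smaller papillomas in p16 mice. Its gene set analysis left out genes that keratinocytes do not express, to limit bias from uneven amounts of non-epithelial cells.

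**Figure D1:**
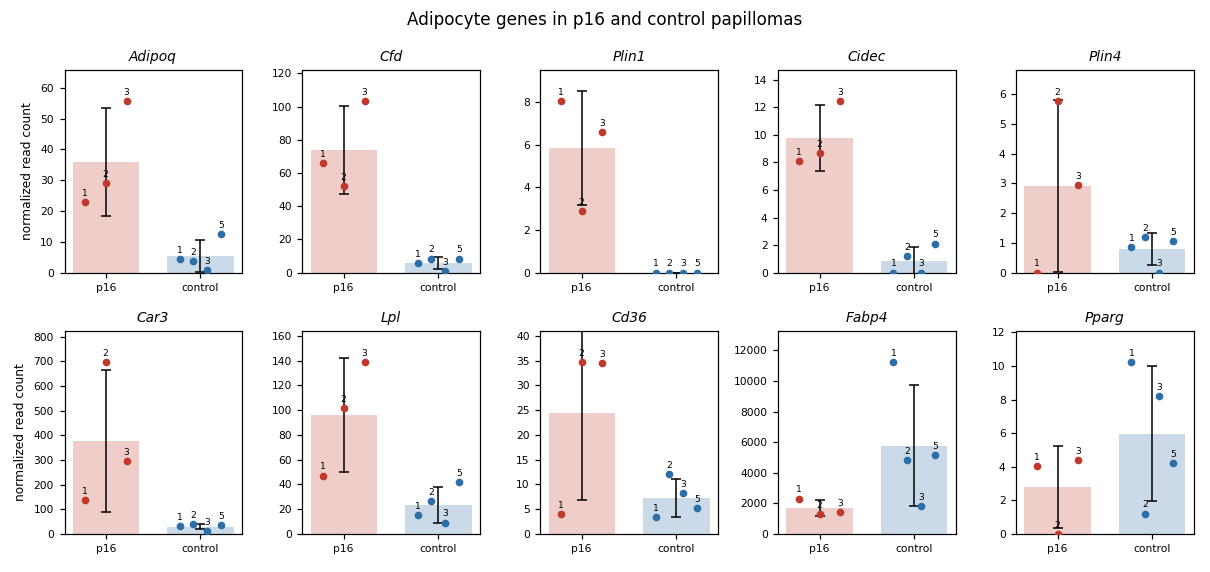
Normalized read counts of the 10 adipocyte genes in 3 p16 papillomas (red, left) and 4 control papillomas (blue, right). Points are papillomas with their numbers, bars are means and error bars are SD. For Adipoq, Cfd, Plin1, Cidec, Car3 and Lpl every p16 papilloma lies above every control papilloma, while Fabp4 has its highest value, 11250, in control 1.

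The 2 secreted proteins come first. Adipoq (ENSMUSG00000022878, chromosome 16, 23146536 to 23158028, GRCm38) encodes adiponectin, a hormone made almost only by fat cells. It had 22.9, 28.9 and 55.9 normalized read counts in p16 papillomas, against 4.27, 3.62, 0.913 and 12.6 in control papillomas. The groups did not overlap, and p16 3 was the highest. The log2 change was 2.78 (SE 0.63, limma, adjusted p = 0.0272), on 103 reads in p16 papillomas and 21 in control papillomas. The result depended on single papillomas: Adipoq did not pass without p16 1 (adjusted p = 0.0521), p16 2 (0.0776), p16 3 (0.106) or control 2 (0.0612), with log2 changes of 2.31 to 3.26 over the 7 omissions.

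Cfd (ENSMUSG00000061780, chromosome 10, 79890853 to 79892655) encodes adipsin, or complement factor D, the protease that cleaves factor B in the alternative complement pathway. Its normalized read counts were 65.9, 52.1 and 104 in p16 papillomas, against 5.98, 8.46, 0.913 and 8.43 in control papillomas. The lowest p16 papilloma was thus several times above the highest control papilloma. The log2 change was 3.61 (SE 0.55, adjusted p = 0.00319, limma), and Cfd passed without any 1 of the 7 papillomas (adjusted p = 0.000998 to 0.0202). Adipoq had 0.347, 0.556 and 0.539 reads per read of Cfd in p16 papillomas, against 0.714, 0.429, 1 and 1.5 in control papillomas, where both genes rested on 12 reads or fewer. Of the 8 other genes listed for the alternative complement pathway and present in the table, 5 were tested, and the central component C3 passed as higher. C3 had 22.9, 37.6 and 13.2 normalized read counts in p16 papillomas, against 3.42, 7.25, 1.83 and 4.21 in control papillomas (log2 change 2.29, SE 0.56, limma, adjusted p = 0.0352). It did not pass without p16 1 (0.0983), p16 2 (0.155), control 1 (0.0576), control 3 (0.0558) or control 5 (0.0703).

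Promoter sequences are shown for Adipoq, Cfd and Cidec (described below), as genes that moved together and whose RefSeq start coincides with the start of the annotated gene. Each line gives the 100 bases before the RefSeq start (GRCm38.p6), 5′ to 3′ on the strand of the gene, and capitals mark the CCAAT box, on either strand.
Adipoq, chr16:23146436-23146535, plus strand: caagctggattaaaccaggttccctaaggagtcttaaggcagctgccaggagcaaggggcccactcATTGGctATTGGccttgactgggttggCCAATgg
Cfd, chr10:79890753-79890852, plus strand: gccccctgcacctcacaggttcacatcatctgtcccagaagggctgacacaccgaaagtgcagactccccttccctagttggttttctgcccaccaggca
Cidec, chr6:113435761-113435860, minus strand: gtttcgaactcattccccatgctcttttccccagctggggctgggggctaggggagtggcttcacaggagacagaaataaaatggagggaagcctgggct
Adipoq held 3 CCAAT boxes within 34 bases of its start, with none in the stretches of Cfd and Cidec. Windows of 300 bases (250 before to 50 after the start) were found by symbol for 7 of the 10 genes, in 10 windows (Adipoq, Cfd, Cd36, Plin1 and Plin4 with 1 each, Cidec with 2 and Pparg with 3), and 5 motifs were searched on both strands. CCAAT was found in 5 of the 10 windows (Adipoq, Cd36, Plin4 and 2 of Pparg), against 37.4% of all 32851 promoter windows. The nuclear receptor half-site AGGTCA was found in 3 (Cd36 and 2 of Pparg, against 16.3%) and TATAAA in 1 (Pparg, against 13.6%). The paired site AGGTCANAGGTCA, which contains the half-site, and the C/EBP palindrome TTGCGCAA were found in 0 of the 10, against 0.0396% and 0.183% of all windows.

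The lipid droplet genes Plin1, Cidec and Plin4 had few reads and lay under the filter on low values. Plin1 (ENSMUSG00000030546, chromosome 7, 79720218 to 79732903) encodes perilipin 1, which coats the droplet of fat cells and controls lipolysis. It had 8.07, 2.89 and 6.62 normalized read counts in p16 papillomas (6, 1 and 9 reads), against 0 in each of the 4 control papillomas. All p16 papillomas thus had at least 1 read and no control papilloma had any. With the control group set at a floor of 3 reads, the ratio of pooled reads for Plin1 was 8.98, scaled to library totals. This ratio takes the 16 reads of p16 papillomas as exact, so it is not a lower limit. Cidec (ENSMUSG00000030278, chromosome 6, 113424634 to 113435760) encodes a protein that fuses droplets into 1 large droplet. It had 8.07, 8.68 and 12.5 normalized read counts in p16 papillomas, against 0, 1.21, 0 and 2.11 in control papillomas. The groups did not overlap, on 26 reads in p16 papillomas and 3 in control papillomas (ratio of pooled reads 14.6, scaled to library totals, exact 95% interval 4.47 to 75.3, which covers counting error only). Fitted over all 14680 genes with a read, limma gave a log2 change of 2.69 for Plin1 (SE 0.52, adjusted p = 0.0125) and 2.71 for Cidec (SE 0.58, adjusted p = 0.0217), and both passed as higher, beside 1.76% of those genes. On the recovered reads the log2 changes were larger, at 5.56 with edgeR and 5.04 with DESeq2 for Plin1 and at 3.51 with edgeR and 3.69 with DESeq2 for Cidec, and against a group at or near 0 reads such values depend on the fit and are no bound. In that fit Plin1 did not pass without p16 1 (adjusted p = 0.0539) or p16 3 (0.0509). Cidec did not pass without p16 1 (0.0528), p16 2 (0.0609), p16 3 (0.0750), control 1 (0.0555) or control 3 (0.0532). With the filter, Cidec was tested only without p16 1 (limma, SE 1.06, adjusted p = 0.187) or p16 2 (SE 1.11, adjusted p = 0.240). The SE of these 2 omissions was 0.67 and 0.64 in the fit over all genes with a read, so its adjusted p depends on the filter.

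Plin4 (ENSMUSG00000002831, chromosome 17, 56100591 to 56109803) encodes perilipin 4, found on small droplets. It had 0, 5.79 and 2.94 normalized read counts in p16 papillomas, against 0.854, 1.21, 0 and 1.05 in control papillomas. The groups overlapped, and 6 reads in p16 papillomas against 3 in control papillomas (pooled ratio 3.37, exact 95% interval 0.719 to 20.8) did not show a difference at this depth. Of the 18 other genes listed for lipid droplets and lipolysis, 11 were tested and 0 passed with limma (2 higher and 0 lower at an unadjusted p under 0.05, 0 passing with edgeR and 1 with DESeq2). Those with the smallest p were Pnpla3, a lipase of the droplet, with 258, 269 and 137 normalized read counts in p16 papillomas, against 92.2, 100.3, 146 and 120.1 in control papillomas (log2 change 0.90, adjusted p = 0.0627), and Plin3, a widely expressed perilipin (0.49, adjusted p = 0.165). The rises of Plin1 and Cidec thus stood beside a median log2 change of 0.23 for the 11 tested genes of the list. The other 7 genes of the list lay under the filter, as Plin1 and Cidec did. Of these 7, 5 had a higher and 2 a lower mean in p16 papillomas, and 2 were at 0 in every control papilloma. Among all untested genes with a read, 48.7% had a higher p16 mean and 5.8% were at 0 in every control papilloma.

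**Figure D2:**
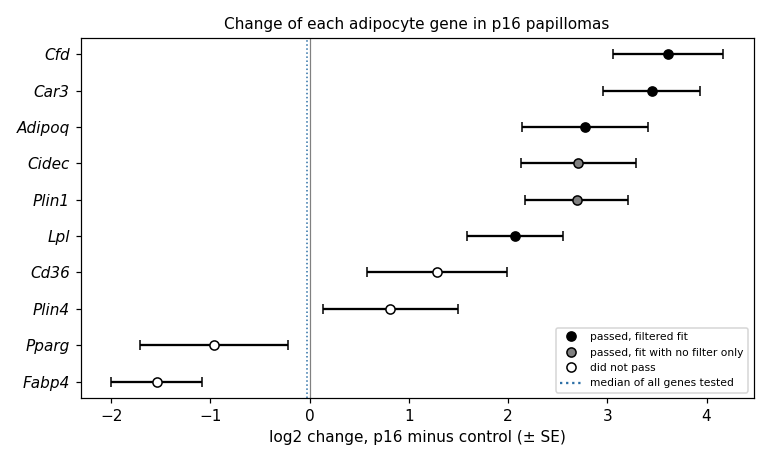
Log2 change of each adipocyte gene, p16 minus control, with SE. Black points passed among the 10466 genes above the filter, grey points passed only in the fit over all 14680 genes with a read, and white points did not pass. Values run from 3.61 for Cfd to −1.54 for Fabp4, and the dotted line is the median of all genes tested (−0.02).

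Lpl (ENSMUSG00000015568, chromosome 8, 68880491 to 68907448) encodes lipoprotein lipase, made by fat and muscle and, per the authors' mark, detected in sorted keratinocytes. It had 47.1, 101 and 139 normalized read counts in p16 papillomas, against 15.4, 26.6, 9.13 and 42.1 in control papillomas. The groups did not overlap, although p16 1 was only slightly above control 5. The log2 change was 2.07 (SE 0.48, limma, adjusted p = 0.0302). Lpl did not pass without p16 2 (adjusted p = 0.106), p16 3 (0.1004), control 1 (0.06) or control 2 (0.0506), with log2 changes of 1.71 to 2.51 over the 7 omissions.

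Cd36 (ENSMUSG00000002944, chromosome 5, 17781690 to 17888801) encodes a fatty acid translocase that macrophages, muscle and capillary endothelium also express. It had 4.04, 34.7 and 34.5 normalized read counts in p16 papillomas, against 3.42, 12.1, 8.22 and 5.27 in control papillomas. Both p16 2 and p16 3 were above every control papilloma, while p16 1 lay within the control range. The log2 change of 1.29 (SE 0.70) did not pass (limma, adjusted p = 0.319), and it rested on single papillomas in both directions. It was 2.23 and passed without p16 1 (adjusted p = 0.0449), 0.82 without p16 2 (0.653) and 0.82 without p16 3 (0.607), and it passed in 1 of 17 alternatives in all. Of the 22 other genes listed for triglyceride synthesis and fatty acid uptake, 15 were tested and 0 passed with limma (3 higher and 1 lower at an unadjusted p under 0.05, 0 passing with edgeR and 1 as lower with DESeq2). Those with the smallest p were the phosphatidate phosphatases Lpin2 (log2 change −0.89, adjusted p = 0.0694) and Lpin1 (1.46, adjusted p = 0.120). Lpin1 had 24.2, 11.6 and 29.4 normalized read counts in p16 papillomas, against 5.12, 10.9, 3.65 and 9.48 in control papillomas.

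Car3 (ENSMUSG00000027559, chromosome 3, 14863512 to 14872523), the carbonic anhydrase gene of fat and muscle, was higher in p16 papillomas. Its normalized read counts were 137, 698 and 295 in p16 papillomas, against 31.6, 38.7, 12.8 and 33.7 in control papillomas. The groups did not overlap, and p16 2 stood above the other papillomas. The log2 change was 3.45 (SE 0.49, limma, adjusted p = 0.00225), and Car3 passed without any 1 of the 7 papillomas (adjusted p = 0.00125 to 0.00905).

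Skeletal muscle transcripts moved with part of this pattern. The 20 muscle markers summed to 332, 13257 and 3130 normalized read counts in p16 papillomas, against 657, 742, 239 and 242 in control papillomas, and none was at 0 in every papilloma of a group. All 20 had a higher mean log2 value in p16 papillomas (median log2 change 2.60), as did 5008 of all 10466 genes tested. With limma 0 of the 20 passed, against 16 at an unadjusted p under 0.05. With edgeR and DESeq2 12 each passed as higher, beside 543 and 786 of the 10466 genes in either direction. Counts at an unadjusted p, here and for the other lists, have no share over all genes beside them and are descriptions only. Tcap, a protein of the sarcomere, had the smallest p (log2 change 3.45, adjusted p = 0.0584), followed by the fast myosin Myh1 (2.68, adjusted p = 0.0594). Car3 was highest in p16 2, where muscle was highest, whereas Adipoq, Cfd, Lpl and Cidec were highest in p16 3. Per read of the muscle marker Ckm, Car3 had 4.435, 0.7555 and 1.453 reads in p16 papillomas, against 0.881, 1.143, 0.7778 and 1.455 in control papillomas. By this ratio only p16 1 lay above the control range. In p16 1 the muscle sum lay within the control range, and Adipoq, Cfd, Car3, Lpl, Plin1 and Cidec were still above every control papilloma there, while Cd36 was not. With the muscle score of each papilloma as a covariate, Cfd (log2 change 3.49, limma, adjusted p = 0.0397) and Car3 (2.34, adjusted p = 0.0142) passed, while Adipoq (2.61, adjusted p = 0.165) and Lpl (1.58, adjusted p = 0.244) did not, and the change of Cd36 was 0.07. The SE was larger in this fit, at 0.83 against 0.63 for Adipoq and 0.60 against 0.48 for Lpl. Over all genes tested 186 were called, against 588 without the covariate. The part of muscle in the values of p16 2 and p16 3 was not tested beyond this.

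**Figure D3:**
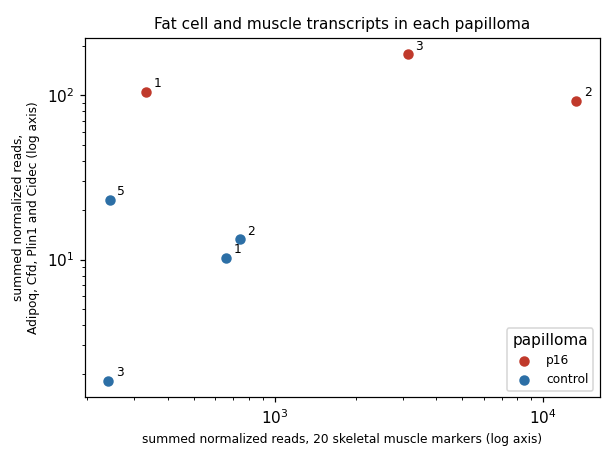
Summed normalized read counts of Adipoq, Cfd, Plin1 and Cidec (vertical, log axis) against those of 20 skeletal muscle markers (horizontal, log axis) in each p16 (red) and control (blue) papilloma, with its number. The fat cell sums are 92.6 to 179 in p16 papillomas and 1.83 to 23.2 in control papillomas, and p16 1 lies within the control papillomas on the muscle axis. These 4 genes were picked for the sum after their values were seen.

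Of 9 genes without Fabp4, the summed normalized read count was 297, 932 and 654 in p16 papillomas, against 71.7, 93.0, 40.2 and 109.6 in control papillomas. These sums correspond to 0.00918% to 0.0278% of the reads of p16 papillomas and 0.00129% to 0.00334% of those of control papillomas. Car3 made up much of these sums, and without it the other 8 genes summed to 160.1, 234 and 359 in p16 papillomas, against 40.1, 54.4, 27.4 and 75.9 in control papillomas.

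Fabp4 (ENSMUSG00000062515, chromosome 3, 10204088 to 10208576) had a log2 change in the other direction. Its product carries fatty acids in fat cells, macrophages and capillary endothelium, and the gene bears the authors' mark for sorted keratinocytes. It had 2303, 1317 and 1426 normalized read counts in p16 papillomas, against 11250, 4819, 1812 and 5155 in control papillomas. Control 1 was the highest and control 3 lay within the p16 range, so the groups overlapped. The log2 change of −1.54 (SE 0.46) did not pass (limma, adjusted p = 0.0764), but without control 3 it was −2.0 and passed (adjusted p = 0.00499). Without control 1 it was −1.13 (adjusted p = 0.103). Fabp4 had 25.5 to 100.7 reads per read of Adipoq in p16 papillomas, against 408 to 2635 in control papillomas. The control ratios rest on 5, 3, 1 and 12 reads of Adipoq, so they are imprecise and reflect the low Adipoq values as well as Fabp4.

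The related gene Fabp5, the epidermal fatty acid-binding protein, lies 187.48 kb from Fabp4 on chromosome 3. It had 22566, 23162 and 24622 normalized read counts in p16 papillomas, against 27568, 17461, 14586 and 16960 in control papillomas (log2 change 0.34, SE 0.22, limma, adjusted p = 0.419). There were 0.102, 0.0569 and 0.0579 reads of Fabp4 per read of Fabp5 in p16 papillomas, against 0.408, 0.276, 0.124 and 0.304 in control papillomas. The ratios did not overlap between groups, which is given as a description because the pair was set side by side after its values were seen. No stretch of 50 bases in the last 500 bases of the coding transcripts of Fabp4, Fabp5 or the other 9 adipocyte genes occurred in a transcript of another gene (GENCODE M21). Macrophage markers summed to 266 to 292 normalized read counts in p16 papillomas and 197 to 369 in control papillomas, and endothelial markers to 591 to 975 in p16 papillomas and 435 to 681 in control papillomas. Flt1, which bears the keratinocyte mark, was the largest part of each endothelial sum. It had 724, 437 and 347 in p16 papillomas, against 285, 318, 228 and 198 in control papillomas. Of the endothelial genes tested, 5 had a positive and 5 a negative change (median log2 change −0.006). Of 8 macrophage genes tested 0 passed with limma, edgeR or DESeq2 (0 at an unadjusted p under 0.05), and Lyz2, the macrophage lysozyme, had the smallest p (log2 change 0.74, adjusted p = 0.301), ahead of the receptor Fcgr3 (−0.98, adjusted p = 0.478). Of 10 endothelial genes tested 0 passed with limma (1 higher and 1 lower at an unadjusted p under 0.05, 1 passing as higher with edgeR and with DESeq2), the smallest p being those of the receptors Flt1 (0.92, adjusted p = 0.0533) and Tie1 (−0.58, adjusted p = 0.146). The part of these cells in the Fabp4 values was not tested. Of the 27 other relatives of the 10 genes in the table, 14 were tested and 0 passed with limma (3 higher and 2 lower at an unadjusted p under 0.05, 0 with edgeR, 1 higher and 1 lower with DESeq2), those with the smallest p being the nuclear receptor Ppard (−0.75, adjusted p = 0.0629) and the lysosomal Cd36 relative Scarb2 (−0.50, adjusted p = 0.0693).

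**Figure D4:**
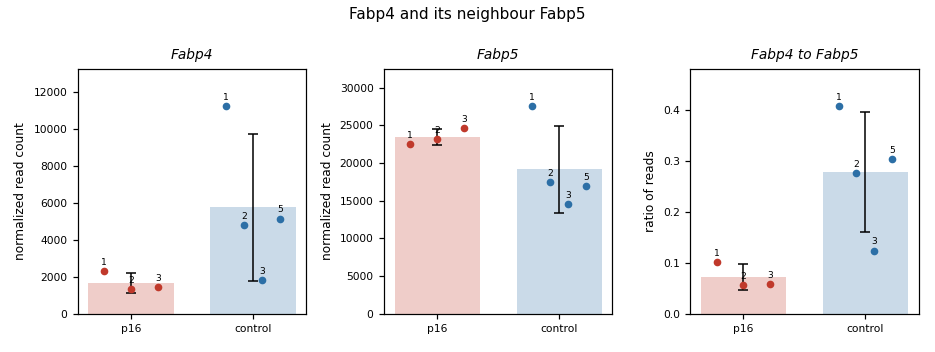
Normalized read counts of Fabp4 and Fabp5, and reads of Fabp4 per read of Fabp5, in 3 p16 (red, left) and 4 control (blue, right) papillomas. Points are papillomas with their numbers, bars means and error bars SD. The ratio is 0.0569 to 0.102 in p16 papillomas and 0.124 to 0.408 in control papillomas.

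Pparg (ENSMUSG00000000440, chromosome 6, 115360951 to 115490399), the regulator of fat cell differentiation, was near the detection limit. It had 4.04, 0 and 4.41 normalized read counts in p16 papillomas, against 10.2, 1.21, 8.22 and 4.21 in control papillomas. The groups overlapped, and 9 reads in p16 papillomas against 26 in control papillomas (pooled ratio 0.583, exact 95% interval 0.240 to 1.28) did not show a difference at this depth. Pparg bears the authors' keratinocyte mark and is also used by sebocytes. Of 11 sebaceous gland markers tested 0 passed with limma, edgeR or DESeq2 (2 higher at an unadjusted p under 0.05), and the smallest p was that of the glutathione transferase Mgst1 (log2 change 1.01, adjusted p = 0.124). Of the 11, 10 had a positive change, and their median log2 change was 0.74, against −0.02 for all genes tested. The 15 sebaceous markers in the table, Pparg included, summed to 822, 1138 and 1683 normalized read counts in p16 papillomas, against 637, 670.4, 728 and 1027 in control papillomas, so that the ranges overlapped. The part of sebaceous glands in the fat cell values was not tested.

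Among the 18 other adipogenic factors in the table, 12 were tested and 1 passed with limma, as lower, against 0 with edgeR or DESeq2 (4 higher and 1 lower at an unadjusted p under 0.05). This was Nr2f2, a nuclear receptor of mesenchymal and endothelial cells, with 17.5, 11.6 and 27.9 normalized read counts in p16 papillomas, against 35.0, 39.9, 58.4 and 44.3 in control papillomas (log2 change −1.24, SE 0.32, limma, adjusted p = 0.0479). The groups did not overlap, but of the 7 omissions Nr2f2 passed only without p16 3 (adjusted p = 0.0242 to 0.146 over the 7). It did not pass with edgeR (0.0773), DESeq2 (0.0833), no filter (0.0677), scaling to library totals (0.0662) or the muscle covariate (0.304). Of the 26 other adipokines and fat cell markers in the table, 15 were tested and 0 passed with limma (5 higher and 0 lower at an unadjusted p under 0.05, 2 passing as higher with edgeR and 3 with DESeq2). Orm1, an acute-phase protein, had 32.3, 78.2 and 50.7 normalized read counts in p16 papillomas, against 5.12, 30.2, 15.5 and 15.8 in control papillomas (log2 change 1.76, adjusted p = 0.0630). Retnla, a secreted protein of fat cells and macrophages, had 47.1, 151 and 7.35 in p16 papillomas, against 5.12, 9.66, 2.74 and 6.32 in control papillomas (log2 change 2.60, adjusted p = 0.0831). The other 11 markers of that list lay under the filter, and each had a higher mean in p16 papillomas, beside 48.7% of the 4214 genes with a read that were not tested. Among them, and chosen after its values were seen, leptin (Lep) had 0, 2 and 3 reads in p16 papillomas, against 0 reads in every control papilloma, and resistin (Retn) had 7, 1 and 18 reads in p16 papillomas, against 2, 0, 3 and 3 in control papillomas. Others of the 11 rested on very few reads. Tusc5 had 3 reads in p16 papillomas against 4 in control papillomas, and its log2 change was −0.024. Serpina3c had 2 reads, both in p16 1.

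Genes for making fatty acids and for the precursors of fat cells gave single changes. Of 8 lipogenesis genes tested, the fatty acid elongase Elovl5 passed as higher, with 161, 148 and 194 normalized read counts in p16 papillomas, against 83.7, 76.1, 61.2 and 79.0 in control papillomas (log2 change 1.15, SE 0.19, limma, adjusted p = 0.00437). Of 8 precursor genes tested, 2 passed as lower and 1 as higher. Cd34, a surface marker of adipocyte precursors and also of hair follicle stem cells and endothelium, had 17.5, 14.5 and 16.9 normalized read counts in p16 papillomas, against 45.3, 42.3, 34.7 and 49.5 in control papillomas (log2 change −1.34, adjusted p = 0.0110, limma), but it did not pass with the skeletal muscle covariate (0.105). Anxa3 also fell (−1.66, adjusted p = 0.0186), though not without p16 1 (0.0678) or p16 2 (0.0764). The matrix gene Mfap5 was higher, with 18.8, 37.6 and 23.5 normalized read counts in p16 papillomas, against 6.83, 0, 1.83 and 0 in control papillomas (log2 change 3.62, adjusted p = 0.0253), and did not pass without p16 1 (0.0609), p16 2 (0.120), p16 3 (0.0741) or control 5 (0.0508). Of 5 brown and beige fat genes tested 0 passed with limma, edgeR or DESeq2 (1 higher and 1 lower at an unadjusted p under 0.05), and the smallest p were those of the thyroid hormone deiodinase Dio2 (−1.28, adjusted p = 0.138) and the regulator Prdm16 (2.02, adjusted p = 0.146). In the fit over all genes with a read, which called Plin1 and Cidec, a gene of this list passed as higher. This was Cox8b, a subunit of cytochrome c oxidase in brown fat and in heart and skeletal muscle, with 1, 4 and 15 reads in p16 papillomas, against 0 in every control papilloma (log2 change 2.82, SE 0.64, adjusted p = 0.0308), and it was named after its values were seen.

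Keratinocyte genes changed in both directions, and stromal levels varied. Genes that the authors marked as expressed in sorted keratinocytes took 90.1% to 92.2% of the reads of each papilloma. The mark covers 12235 of the 14820 genes, among them the collagen gene Col1a2 and the muscle marker Atp2a1. This share is therefore no measure of epithelial content. Among 10 keratinocyte markers the suprabasal keratins Krt1 (log2 change 1.47, limma, adjusted p = 0.00221) and Krt10 (1.43, adjusted p = 0.00715) passed as higher and the basal integrin Itga6 (−0.73, adjusted p = 0.0169) as lower. Krt10 did not pass with the muscle covariate (0.0880), nor did Itga6 (0.0583), which was also lost without p16 1 (0.0689), control 2 (0.0586) or control 5 (0.0545). The 10 fibroblast and matrix markers summed to 15910, 4516 and 22369 normalized read counts in p16 papillomas, against 15111, 15736, 5829 and 6039 in control papillomas, so that the ranges overlapped. Of the 10, the proteoglycan Dcn passed as higher, with 463, 318 and 615 normalized read counts in p16 papillomas, against 114, 245, 34.7 and 105 in control papillomas (log2 change 2.14, SE 0.49, limma, adjusted p = 0.0280), but not without p16 1 (0.0800), p16 2 (0.0514), p16 3 (0.0860) or control 5 (0.0642). Control 3, the lowest papilloma for Dcn, was also the lowest for Adipoq, Cfd, Car3 and Lpl and for the muscle sum. Without control 3, the log2 changes of these 4 genes were 2.31, 3.07, 3.10 and 1.71, and all of them passed (adjusted p = 0.0333, 0.000998, 0.00334 and 0.0488). The part of stroma and of keratinocytes in the fat cell values was not tested.

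**Figure D5:**
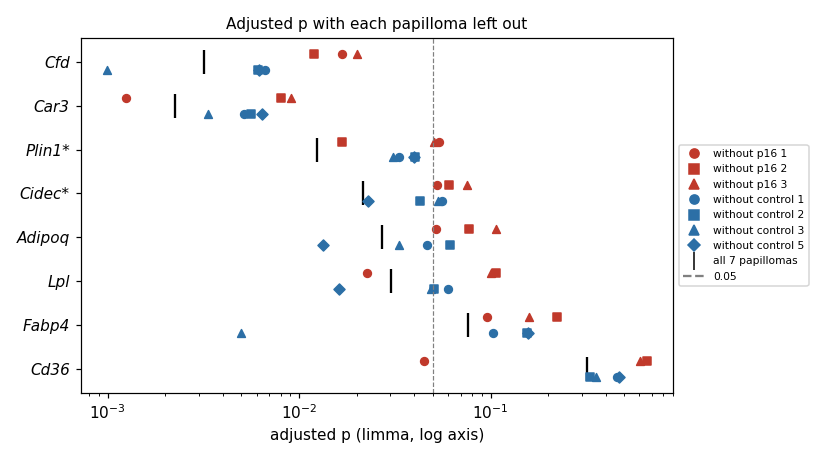
Adjusted p of 8 adipocyte genes (limma, log axis) with all 7 papillomas (black bar) and with each p16 (red, upper) or control (blue, lower) papilloma left out. The dashed line is 0.05, and Plin1 and Cidec (asterisk) are from the fit over all genes with a read. Cfd and Car3 stay below 0.05 in every omission, while Adipoq and Lpl cross it in 4 of 7 each.

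The separation of groups was read against its frequency in the table. Of the 6 genes tested, 4 had every p16 papilloma above every control papilloma, as did 9.25% of all genes tested. Adipoq and Cfd were among the 4 and were tested only through their p16 mean, so this count is a description only. Over all genes with a read the share was 7.51%, and 6 of the 10 adipocyte genes were among them. None of the 10 had every p16 papilloma below every control papilloma.

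The genes closest to the mean profile of the tested adipocyte genes over the 7 papillomas were on none of the lists above. The likeness was the root-mean-square difference between a gene's centred log2 profile and the mean profile of the 6 tested adipocyte genes, Fabp4 included. The 10 closest, at differences of 0.43 to 0.49, were Stfa1, Npl, Stfa3, Gpr157, Scara3, S100a9, Scn8a, Krtap1-3, Lce6a and Cyp17a1, and all but Scn8a and Krtap1-3 passed as higher in p16 papillomas. That they passed follows in part from this choice, because the mean profile was itself higher in p16 papillomas. S100a9, a calcium-binding protein of neutrophils and stressed epidermis, had 11136, 6724 and 13101 normalized read counts in p16 papillomas, against 2158, 3320, 1248 and 2960 in control papillomas. The 2 Stfa genes belong to a family of near-identical copies, so their values are uncertain. Among the adipocyte genes, Lpl lay closest to the mean profile (0.29) and Fabp4 farthest (1.87). Adipoq (0.62), Car3 (0.87), Cfd (0.93) and Cd36 (0.95) also lay farther from it than the 10 genes above. That the 10 genes lay closer follows from their choice as the closest of all genes tested. The difference was not scaled for the size of a change, and Fabp4 lowered the change of the mean profile. These distances are therefore descriptions only.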

How the data were processed

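RNA of whole papillomas (3 p16, 4 control) was profiled by CEL-Seq2. Per the methods and the labels, the authors trimmed reads with Cutadapt, aligned them to GRCm38 with TopHat2, counted them with HTSeq and normalized with DESeq2. Tool versions, the annotation release and the strand setting are not given in the sources used here. Plin4 overlaps Hdgfl2 and Pparg an antisense gene, so some of their reads may be shared. The signal values the authors deposited are read counts divided by 1 size factor per papilloma. Every value was a whole multiple of 1 read (100% to within 0.001 reads), which gave back the read counts. The table also holds the authors' fold changes, standard errors and p-values, which were not used, and a mark for 12235 genes expressed in sorted keratinocytes.

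Values were tested two-sided with limma 3.58.1 (intensity trend, R 4.3.3) on log2(value + 1) for the 10466 genes whose p16 or control mean was 10 or more. On the recovered reads, edgeR 4.0.16 (quasi-likelihood test, TMM) called 543 genes and DESeq2 1.42.0 called 786, against 588 with limma. Other alternatives were pseudocounts of 0.5 and 4, no filter, a filter of 50, scaling to library totals, a skeletal muscle covariate (the mean log2 value of 20 markers), the replicate number as a block and the omission of each papilloma. The limma script was tested on simulated reads. Fits of edgeR and DESeq2 with no filter, and omissions with no filter for the genes under it, were added after seeing the data. The genes and the gene lists were chosen with earlier results of these data known. Named genes are the 10 adipocyte genes, the genes of each other list that passed (at most 4, or the 2 with the smallest p where none did) and the 10 with the most similar profile, clone-type names left out. A gene that this rule selects is not reported here. Gene positions are those of GENCODE M21, which matched 14801 of the 14820 gene identifiers. Pooled ratios of reads were scaled to library totals and carry exact 95% intervals for counting error only, since reads were not corrected here for amplification. Libraries held 1158035 to 4365391 reads, and 1 read in p16 2 was worth 2.89 normalized read counts, which limits genes such as Plin1 and Pparg. Figures were drawn with matplotlib 3.10.9 in Python 3.11.15.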

Additional observations from a re-analysis of the deposited data

Results flagged for a closer look

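Among 38 sets of control values, 2 held a papilloma whose gap to its nearest neighbor exceeded the critical value of Dixon's test for 4 samples, as a share of the range. Chance gives about 1 in 20. The summed keratinocyte markers were highest in control 2 (gap 0.902 of the range). Krt1, the suprabasal keratin, was lowest in control 5 (gap 0.978), with 7953 normalized read counts against 12017 to 12109 in the other control papillomas. None of the 10 adipocyte genes stood apart in this way.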

How the results depend on the processing

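The 588 genes called came to 275 with the replicate block (p16 and control 1 to 3 only, without control 5), under which 4 of the 6 tested adipocyte genes passed as higher. Same-numbered papillomas did not deviate together (r = −0.092, −0.006 and −0.052), so the numbers were not taken as pairs. With the skeletal muscle covariate 186 genes were called and 2 adipocyte genes (Cfd and Car3) passed. Leaving out 1 papilloma gave 267 (without p16 2) to 548 genes and 2 to 4 adipocyte genes called higher (2 without p16 2, p16 3 or control 2). The cause of these drops was not tested, though an omission and the block leave fewer papillomas. Cfd and Car3 passed in all 18 alternatives, Adipoq in 12 of 17 and Lpl in 13 of 18. No alternative that gave a value reversed the sign of any of the 10 genes, but the pseudocounts, scaling, block and covariate were not run for Plin1, Plin4, Pparg and Cidec, which lay under the filter. Of the other genes named as called, Cd34 (adjusted p = 0.105), Anxa3 (0.132), Mfap5 (0.186), C3 (0.224), Dcn (0.181) and Nr2f2 (0.304) did not pass with the covariate, and Cd34 (0.108), Mfap5 (0.0995), C3 (0.0749), Dcn (0.102), Nr2f2 (0.115) and Itga6 (0.0830) did not pass with the replicate block. With no filter, edgeR passed Plin1 (adjusted p = 0.0280), Cidec (0.0343) and, as lower, Fabp4 (0.0355), while DESeq2 passed Cidec (0.0380) and gave no adjusted p for Plin1. Depth limits Plin4 (6 reads in p16 papillomas and 3 in control papillomas) and Pparg (9 and 26).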
